A study of Mus musculus with 22 samples.

Results

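The miR-3473 family of the mouse was followed through the small intestine, blood serum and feces of irradiated and unirradiated male mice. Its members were taken as every miRNA on the array whose name is miR-3473 followed by a letter. There are 7 of them, miR-3473a to miR-3473g, among 1881 mouse miRNAs. The family was chosen by 2 measured values, the higher level of miR-3473b in irradiated feces and the high level of miR-3473f in serum, so the feces dose comparison and the levels between sample types are described here without a test. The study asked how high-dose radiation alters extracellular miRNAs in serum and feces beside those of the small intestine.

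The mice were 8 weeks old and received 10 Gy of X-rays at a rate of 1.0 Gy per minute, or 0 Gy. There were 4 arrays at 0 Gy and 4 at 10 Gy for intestine, the same numbers for feces, and 2 at 0 Gy and 4 at 10 Gy for serum, which makes 22 arrays with 1 sample each. Serum was taken from heart blood. The labels give no strain, no time between irradiation and collection, and no statement that samples are separate animals. P-values therefore measure only the spread among the arrays, some of which may be technical. The 3 sample types lay on a slide each and cannot be told apart from it. Dose cannot be told apart from the slide column either (1 and 2 at 0 Gy, 3 and 4 at 10 Gy), whereas both slide rows held both doses.

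A miRNA is a short RNA that guides an Argonaute protein to messenger RNAs, mainly by pairing of its seed, the bases 2 to 8 from its 5′ end, and so lowers their translation and stability. The miR-3473 sequences match the first bases of the mouse B2 repeat, a short interspersed element derived from a transfer RNA and transcribed by RNA polymerase III. miR-3473b is the studied member. In mouse microglia it represses Socs3, an inhibitor of cytokine signalling. No role is given here for the other members.

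The mature sequences show how alike the members are, and therefore what an array probe for one of them has to tell apart. They are printed 5′ to 3′ from RefSeq, which held all 7 members, with the seed in capitals. Coordinates are those of GRCm38.p6.
miR-3473a: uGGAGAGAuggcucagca
miR-3473b: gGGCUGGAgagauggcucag
miR-3473e: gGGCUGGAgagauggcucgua
miR-3473f: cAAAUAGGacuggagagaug
miR-3473g: cAAAAGUGaggcuggggaga
miR-3473c: uCUCUCCAgcccccauaauaag
miR-3473d: cCACUGAGccacuuuccagcccuu
miR-3473b and miR-3473e share the seed GGCUGGA, which no other mature mouse miRNA in RefSeq's table has, while each of the other 5 members has a seed of its own within the family. Their family name therefore covers 6 seeds.

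miR-3473a lies at chrX:162874920-162874937 on the minus strand, within the span of Syap1. miR-3473b lies at chr10:41670774-41670793 on the plus strand, within Ccdc162. miR-3473c lies at chr1:191998602-191998623 on the minus strand, within Traf5, and miR-3473d at chr8:111016498-111016521 on the minus strand, within Ddx19b. miR-3473e lies at chr5:31667296-31667316 on the minus strand, within Rbks. miR-3473f lies at chr1:106546536-106546555 on the minus strand, within Bcl2, and miR-3473g at chr2:126902290-126902309 on the minus strand, within Sppl2a. Each of the 7 thus lies in the span of a protein-coding gene, and no 2 share one. Whether they lie in exons or introns was not determined here.

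Lined up on the repeat instead of the seed, 4 members hold the run UGGAGAGAUG on the same strand, capitalised here.
miR-3473a: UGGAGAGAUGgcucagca
miR-3473b: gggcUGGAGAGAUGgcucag
miR-3473e: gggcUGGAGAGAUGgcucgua
miR-3473f: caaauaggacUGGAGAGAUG
The longest run of identical bases was 18 between miR-3473b and miR-3473e, 16 between miR-3473a and miR-3473b, and 11 between miR-3473b and miR-3473f. miR-3473g shared a run of 6 bases with miR-3473b. miR-3473c and miR-3473d read the opposite strand: the reverse complement of miR-3473c shared 12 bases with miR-3473b, and that of miR-3473d shared 8. The hairpin of miR-3473b is a repeat facing itself, since all 20 bases of the mature sequence, capitalised below, are also present as their reverse complement at its 5′ end.
miR-3473b hairpin, chr10:41670739-41670793: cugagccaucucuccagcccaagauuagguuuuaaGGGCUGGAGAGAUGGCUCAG
The longest such inverted run was 17 bases in the hairpin of miR-3473f and 6 to 12 bases in those of the other 5 members.

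Searched on both strands, UGGAGAGAUG was present in 9 of 1005 mouse hairpins, of which 6 were family hairpins and 3 were those of Mir6413, Mir690 and Mir8115. The same letters were present in 151 of 32851 promoters (0.46%), each spanning 250 bases before to 50 bases after a gene's start. The longer run that miR-3473b shares with miR-3473e, GGGCUGGAGAGAUGGCUC, contains it and was present in 4 hairpins, all of the family, and in 38 promoters (0.116%). The shared run is therefore rare among hairpins outside the family but is not confined to it.

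On the array the family had 16 probes, 4 for miR-3473f and 2 for each other member. Detection of a miRNA on an array needed 1 probe with no fewer than 50% of spots well above background. miR-3473a, miR-3473b, miR-3473e, miR-3473f and miR-3473g were detected on all 22 arrays. miR-3473c was detected on 8 of 8 feces arrays, 1 of 6 serum arrays (0 Gy replicate 1) and 0 of 8 intestine arrays. miR-3473d was not well above background on any of the 22 arrays, with probe signals from -2.20 to 2.27. So 5 members were measured everywhere, 1 was measured mainly in feces, and 1 has only a bound. The probe sequences were not used here, and whether a probe for one member also binds another was not tested.

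Levels are log2 of the background-subtracted signal, summed over a miRNA's probes and divided by a 75th percentile of the same array. On the common scale, used between sample types, this percentile comes from the 81 miRNAs that all 22 arrays detected. On the type scale, used between doses, it comes from those that every array of that sample type detected. Levels of different members are not set against each other, since probes differ in response. In bulk RNA, fewer cells of a type and less RNA per cell cannot be told apart.

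miR-3473f, high in serum by the choice of the family, had common-scale levels of 3.01 and 2.56 in serum at 0 Gy and 1.95, 2.16, 2.26 and 1.82 in serum at 10 Gy. In intestine its levels were -1.63, -1.75, -0.98 and -0.82 at 0 Gy and -1.42, -0.97, -1.38 and -0.99 at 10 Gy. In feces they were -3.52, -3.30, -3.30 and -2.08 at 0 Gy and -2.11, -1.84, -1.47 and -0.49 at 10 Gy. On this scale every serum array lay above every array of the other sample types. Before scaling, the signal was 759 to 6202 in serum, 167 to 562 in intestine and 248 to 1790 in feces, where serum and feces overlapped. Serum exceeded intestine by 3.53 on the log2 scale (11.6-fold) and feces by 4.56 (23.5-fold), each sample type being the mean over its arrays (6 in serum, 8 in intestine and 8 in feces). Among 264 miRNAs ranked by serum minus the higher of the other sample types, miR-3473f stood 2nd. The ranking held only miRNAs detected widely over the 22 arrays, which left out miR-3473c and miR-3473d. A miRNA detected in serum alone could not enter it, so this place of miR-3473f is among widely detected miRNAs. The order of group means ran from serum at 0 Gy (2.78 ± 0.32, SD) over serum at 10 Gy (2.05 ± 0.20), intestine at 10 Gy (-1.19 ± 0.24), intestine at 0 Gy (-1.30 ± 0.47) and feces at 10 Gy (-1.48 ± 0.71) to feces at 0 Gy (-3.05 ± 0.65). Both serum groups were apart from their lower neighbours, while the ranges of the other 4 groups overlapped from one to the next.

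**Figure D1:**
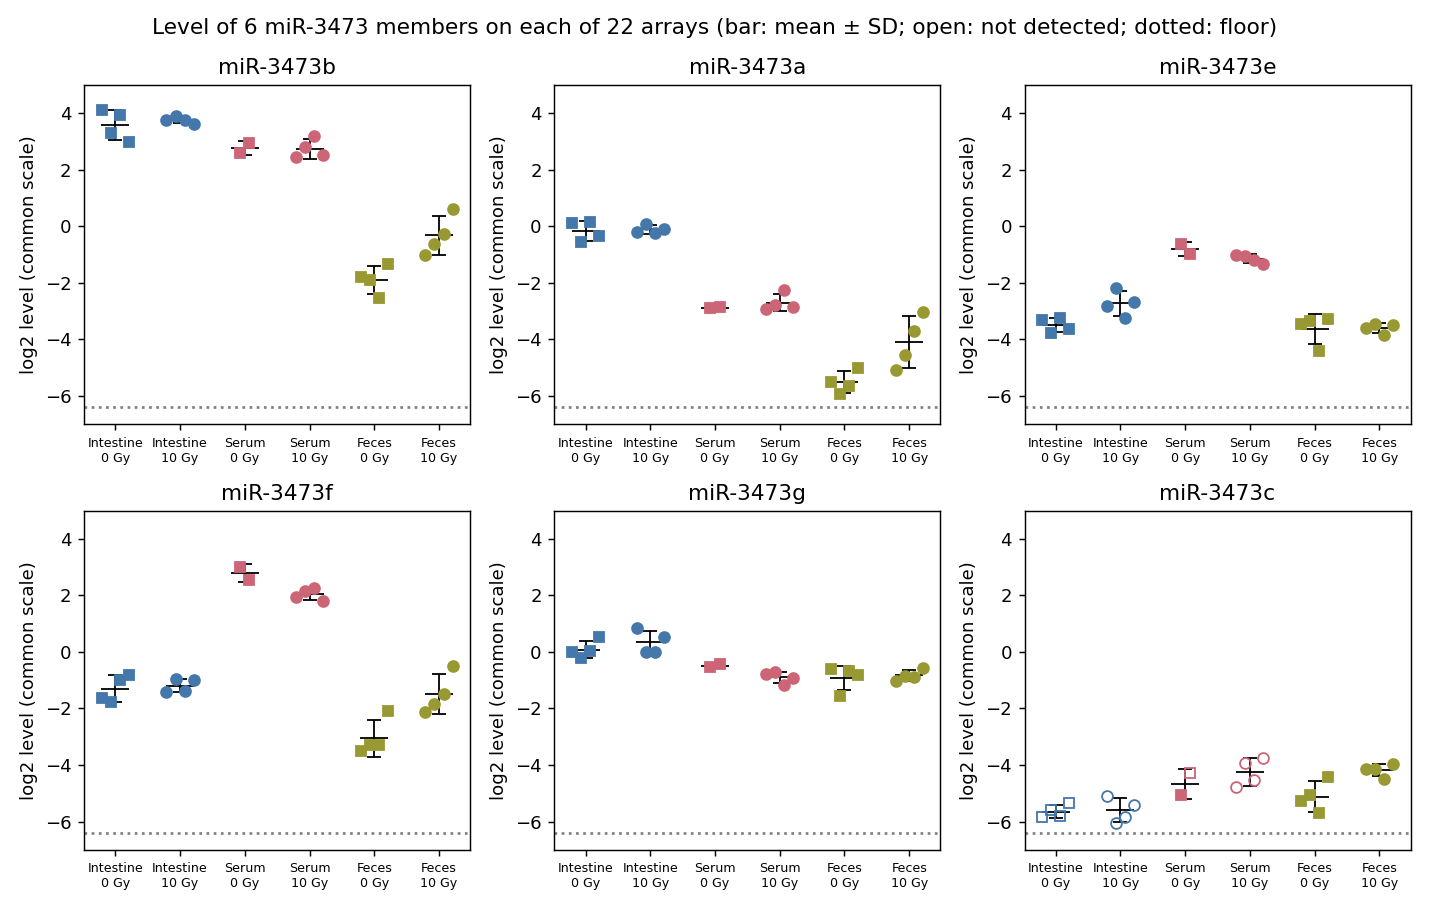
Common-scale log2 level (y axis) of 6 members on each array of the 6 groups (x axis), with mean ± SD, open symbols for arrays without detection and a dotted line at the floor of the scale. On this scale miR-3473f is high in both serum groups (means 2.78 and 2.05), miR-3473a and miR-3473b are lowest in feces, and miR-3473g differs least between the groups.

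miR-3473e also stood high in serum, with -0.63 and -0.99 at 0 Gy and -1.001, -1.07, -1.19 and -1.35 at 10 Gy. It was at -3.33, -3.78, -3.25 and -3.64 in intestine at 0 Gy, at -2.82, -2.17, -3.23 and -2.69 in intestine at 10 Gy, and between -4.41 and -3.29 in feces. On this scale serum exceeded intestine by 2.08 (4.22-fold) and feces by 2.58 (5.98-fold), and miR-3473e was 12th of the 264. Before scaling, its signal was 84.8 to 499 in serum, 39.7 to 243 in intestine and 218 to 830 in feces. The order of serum and feces thus depends on the scaling. Although miR-3473b has the same seed, its order was another. Its level was highest in intestine (3.76 ± 0.11 at 10 Gy and 3.59 ± 0.54 at 0 Gy), next in serum (2.77 ± 0.24 at 0 Gy and 2.74 ± 0.35 at 10 Gy) and lowest in feces (-0.32 ± 0.69 at 10 Gy and -1.89 ± 0.50 at 0 Gy). The 2 intestine groups overlapped each other, as did the 2 serum groups, and the 2 feces groups did not. The lowest intestine array at 0 Gy (2.99) also lay below the highest serum array at 10 Gy (3.21). Before scaling, the signal of miR-3473b was 3919 to 16456 in intestine, 1226 to 4660 in serum and 661 to 3802 in feces. Serum overlapped both other sample types there, so its gap to feces depends on the scaling. For miR-3473b feces minus intestine was -4.78, and in the rank for serum it stood 100th.

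miR-3473a had the same order of sample types as miR-3473b, with group means of -0.11 and -0.17 in intestine (10 Gy and 0 Gy), -2.71 and -2.88 in serum and -4.10 and -5.52 in feces. Its ranges overlapped only between doses of 1 sample type. Before scaling, its signals were 29.9 to 103 in serum and 40.3 to 353 in feces. On the common scale miR-3473g varied least, from 0.34 ± 0.42 in intestine at 10 Gy to -0.92 ± 0.43 in feces at 0 Gy. Its 2 feces groups and the 10 Gy serum group overlapped each other. Before scaling, its signal was 834 to 10962 in feces, 491 to 1215 in intestine and 113 to 535 in serum, so this order depends on the scaling. On some intestine arrays miR-3473g was itself the 75th percentile, so its common-scale level there is 0 by construction. miR-3473c, where it was detected, had -5.29, -5.06, -5.71 and -4.41 in feces at 0 Gy and -4.15, -4.15, -4.48 and -3.96 at 10 Gy. The array values of the 2 feces groups of miR-3473c overlapped on this scale.

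In feces, miR-3473b had type-scale levels of 0.35, 0.32, 0.20 and 0.72 at 0 Gy and 1.15, 1.27, 1.92 and 2.62 at 10 Gy. All 4 irradiated arrays were above all 4 unirradiated ones, with the 2 highest in slide row 2. The difference of means was 1.34 ± 0.34 on the log2 scale (SE, n = 4 against 4), or 2.54-fold, which ranked 23rd of the 491 miRNAs compared in feces. This is the contrast that chose the family and has no test here. Over those 491 miRNAs the median change was 0.15, against 0.95 over the 6 members compared, and 7.54% passed the limma test at an adjusted p below 0.05.

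miR-3473f, which does not share the seed of miR-3473b, gave nearly the same difference in feces. Its levels were -1.36, -1.09, -0.55 and -0.04 at 0 Gy and 0.04, 0.06, 0.72 and 1.50 at 10 Gy, a difference of 1.34 ± 0.41. The groups did not overlap, but the highest 0 Gy array lay next to the lowest 10 Gy array. miR-3473a had -3.35, -3.72, -2.89 and -2.96 at 0 Gy and -2.93, -2.67, -1.51 and -1.03 at 10 Gy, a difference of 1.19 ± 0.44. Here the lowest irradiated array lay among the unirradiated ones. Of the 2 probes of miR-3473a, 1 was detected on all 8 feces arrays and changed by 1.36. The other was detected on 5 of the 8 and changed by 0.25. miR-3473c, read from the other strand, had -3.13, -2.85, -2.97 and -2.36 against -1.99, -2.25, -2.28 and -1.97, a difference of 0.70 ± 0.24 without overlap. Without overlap and higher at 10 Gy were thus 3 of the 6 members compared, where 19.8% of all 491 miRNAs were so, and the choice of the family bears on this count.

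The means of miR-3473e and miR-3473g were not higher at 10 Gy on the type scale. The feces levels of miR-3473e were -1.29, -1.16, -1.66 and -1.25 at 0 Gy and -1.45, -1.58, -1.64 and -1.51 at 10 Gy, a difference of -0.20 ± 0.21. Those of miR-3473g were 1.55, 0.66, 2.06 and 1.23 at 0 Gy and 1.13, 1.07, 1.30 and 1.42 at 10 Gy, a difference of -0.14 ± 0.31. Both overlapped between the doses. On the common scale the differences had the other sign and were small, 0.026 for miR-3473e and 0.084 for miR-3473g. The 2 members with the seed GGCUGGA therefore had differences of 1.34 and -0.20 in the same 8 samples.

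**Figure D2:**
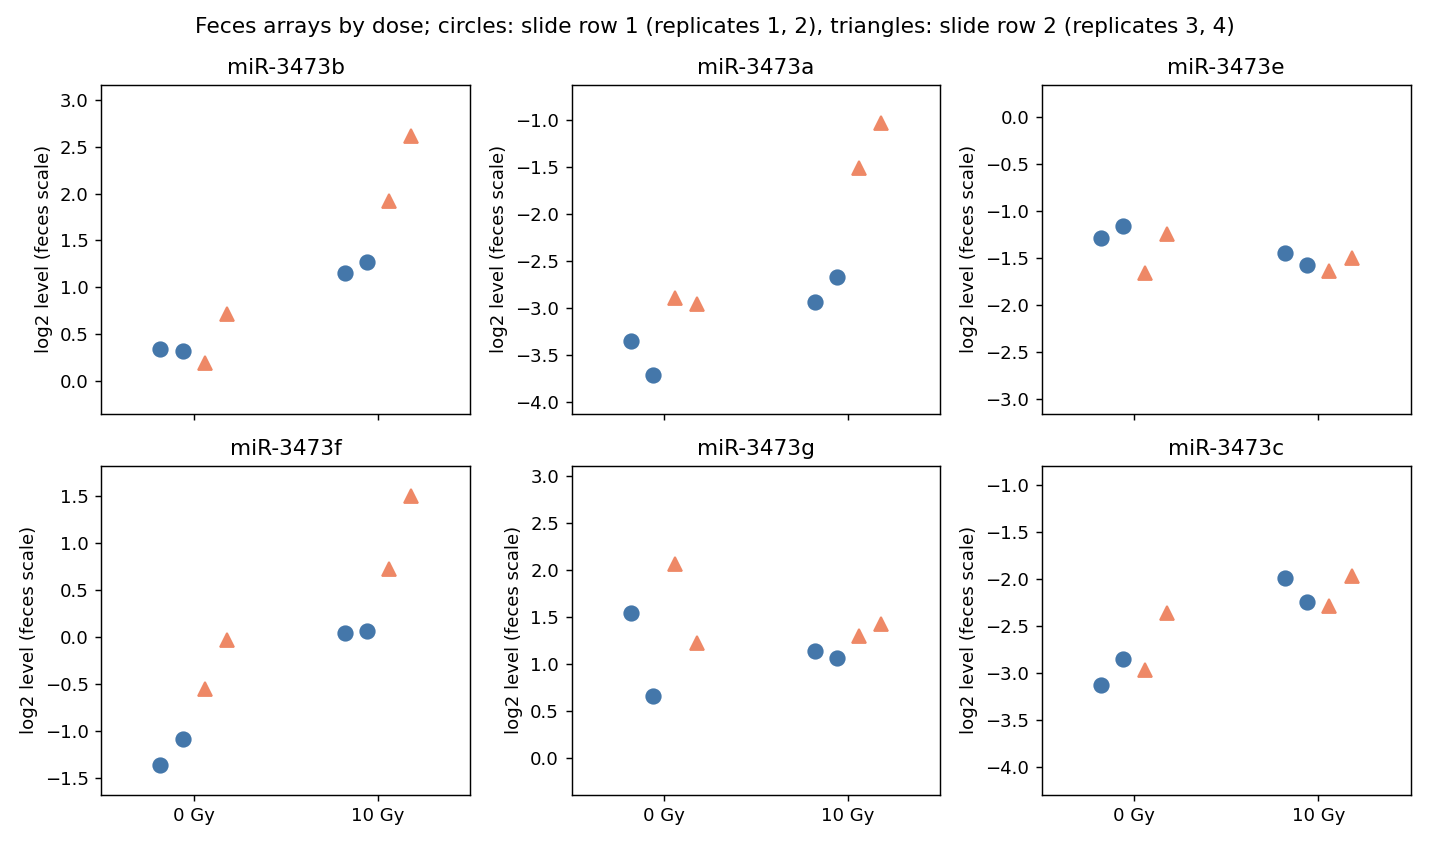
Type-scale log2 level (y axis, the same span in every panel) of 6 members on the 8 feces arrays by dose (x axis), with circles for slide row 1 and triangles for slide row 2. The 10 Gy arrays of miR-3473b, miR-3473f and miR-3473c lie above all 0 Gy arrays, and those of miR-3473e and miR-3473g do not.

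The differences of miR-3473b in feces were 0.88 within slide row 1 and 1.81 within row 2, those of miR-3473a 0.73 and 1.66, and those of miR-3473f 1.28 and 1.41. The unirradiated feces arrays detected 468, 378, 675 and 585 miRNAs. On the first principal component of the feces levels (48.9% of the variance) the third of them stood at 22.3, and the other 3 lay between -0.98 and 7.74. Without that array the differences were 1.28 for miR-3473b, 1.41 for miR-3473f, 1.31 for miR-3473a, 0.66 for miR-3473c and -0.31 for miR-3473e. That of miR-3473g turned from -0.14 to 0.09. With signals not scaled between arrays the differences were 0.70 for miR-3473b and for miR-3473f, 0.55 for miR-3473a, 0.06 for miR-3473c, -0.85 for miR-3473e and -0.79 for miR-3473g, while the median of all 491 miRNAs was -0.49.

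In the small intestine miR-3473e rose after irradiation, and it was the only 1 of the 5 tested members that passed. Its type-scale levels were -2.91, -3.56, -3.08 and -3.70 at 0 Gy and -2.84, -1.44, -2.77 and -2.67 at 10 Gy. No array overlapped, although replicate 1 of both doses came close (-2.91 and -2.84) and 10 Gy replicate 2 was far above the rest. The change was 0.88 ± 0.30 (SE, n = 4 against 4, limma adjusted p = 0.0335 over 335 miRNAs), or 1.84-fold. Of all 335 miRNAs 41.8% passed, and 26% of the 335 passed with higher levels at 10 Gy, so 1 of 5 members is no more than the background. The call was lost without 0 Gy replicate 2 (0.80, adjusted p = 0.0924), without 10 Gy replicate 2 (0.56, adjusted p = 0.0737) or without 10 Gy replicate 3 (0.99, adjusted p = 0.0534). With normexp background correction the change was 0.11 (adjusted p = 0.576), and with the percentile taken over all miRNAs 0.37 (adjusted p = 0.405).

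Of the 2 probes of miR-3473e, 1 was detected on all 8 intestine arrays and changed by 0.82, and the other was detected on 1 array and changed by 0.04. From the brighter probe of each miRNA alone, the change of miR-3473e was 0.78 and did not pass (adjusted p = 0.0942). miR-3473g had 0.42, 0.02, 0.20 and 0.45 at 0 Gy and 0.82, 0.73, 0.47 and 0.55 at 10 Gy, without overlap, and its change of 0.37 ± 0.17 did not pass (adjusted p = 0.102). Of the 335 miRNAs, 23.6% were higher at 10 Gy without overlap, as were these 2 of 5 members. miR-3473b had 4.54, 3.52, 4.12 and 2.92 at 0 Gy and 3.75, 4.62, 4.23 and 3.65 at 10 Gy. Its change of 0.29 ± 0.33 (adjusted p = 0.514) lay within the spread between arrays, as did those of miR-3473a (0.18 ± 0.27, adjusted p = 0.631) and miR-3473f (0.22 ± 0.25, adjusted p = 0.516). With the percentile over all miRNAs the changes of miR-3473a, miR-3473b, miR-3473f and miR-3473g turned negative (-0.34, -0.23, -0.29 and -0.14), while the median of all 335 moved from 0.16 to -0.35.

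In serum none of the 5 tested members passed, where 9 of 193 miRNAs (4.66%) passed by limma and 20.7% had an unadjusted p below 0.05. miR-3473f had the largest change, with type-scale levels of 3.58 and 3.26 at 0 Gy and 2.63, 2.80, 2.83 and 2.57 at 10 Gy. Both unirradiated arrays lay above all 4 irradiated ones. The change was -0.71 ± 0.21 (SE, n = 2 against 4, limma unadjusted p = 0.0111, adjusted p = 0.121), the only unadjusted p of the 5 members below 0.05. Its 4 probes gave changes from -0.73 to -0.70. With normexp background correction the change was -0.82 and passed (adjusted p = 0.00888). Without 1 array at a time it ranged from -0.88 to -0.56 (adjusted p from 0.104 to 0.416).

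miR-3473e had -0.05 and -0.29 at 0 Gy and -0.32, -0.42, -0.62 and -0.60 at 10 Gy in serum, a change of -0.32 ± 0.20 (adjusted p = 0.478). miR-3473g had 0.05 and 0.26 at 0 Gy and -0.09, -0.06, -0.58 and -0.18 at 10 Gy, a change of -0.38 ± 0.23 (adjusted p = 0.462). Neither overlapped between doses, which makes 3 of 5 members lower at 10 Gy without overlap, against 20.2% of the 193 miRNAs. miR-3473b had 3.17 and 3.64 against 3.13, 3.44, 3.78 and 3.26, a change of -0.0035 ± 0.26 (adjusted p = 0.990), and miR-3473a changed by 0.20 ± 0.23 (adjusted p = 0.654). With these SEs, small changes of either sign remain possible for both.

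The red cell miRNAs moved with miR-3473f in serum. miR-486a-5p fell by 1.46 ± 0.25 (limma adjusted p = 0.0239), while miR-144-3p was not detected in serum. miR-451a had a difference of -3.41 ± 0.49, which is given without a test. It was detected on 2 of 2 serum arrays at 0 Gy and 1 of 4 at 10 Gy, so the unirradiated arrays alone brought it into the comparison. Its mean at 10 Gy (-3.95) lay near the floor (-4.63). The summed common-scale level of the 3 was 3.56 to 3.67 in serum at 0 Gy and 1.77 to 2.37 at 10 Gy. In intestine miR-486a-5p was detected on 0 of 4 arrays at 0 Gy and 4 of 4 at 10 Gy, so only the irradiated arrays brought it into the comparison. Its difference of 0.66 ± 0.17 there is given without a test, and miR-451a did not pass in intestine. In feces 2 of the 3 were not detected in either group and the 1 tested did not pass. On the common scale all 3 were at the floor on every feces array, so their sum could not vary there. Their part in the serum values of miR-3473f was not tested.

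**Figure D3:**
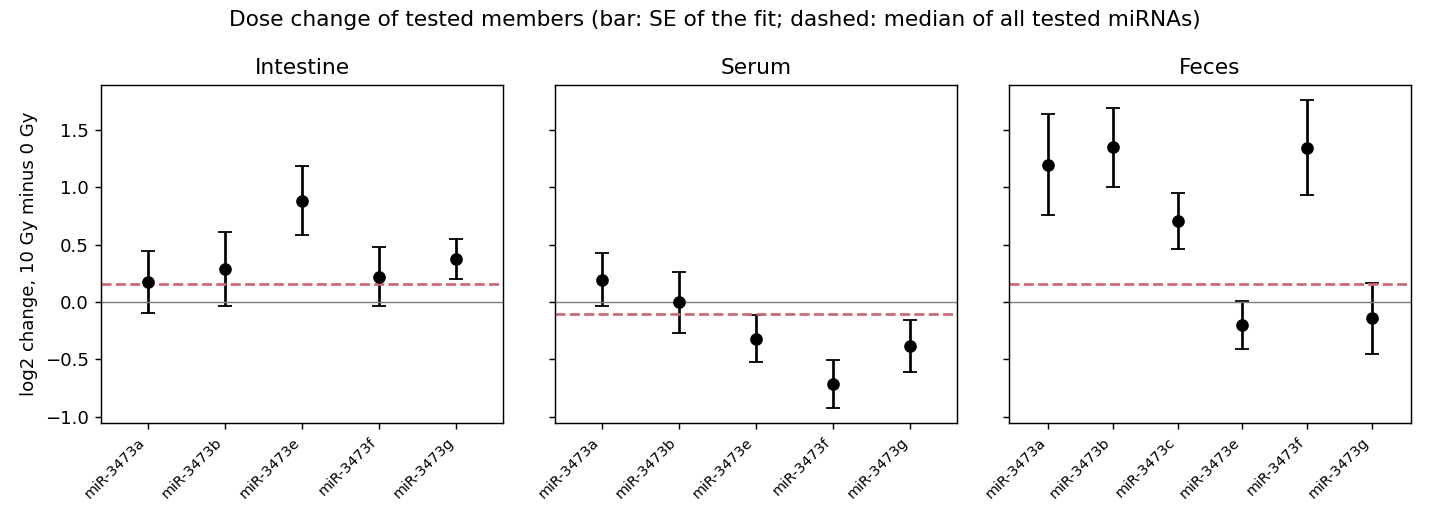
Change from 0 Gy to 10 Gy (log2, y axis; bars are the SE of the fit) of each tested member (x axis) in the 3 sample types, with the median of all tested miRNAs dashed. miR-3473a, miR-3473b and miR-3473f stand at 1.19 to 1.34 in feces and at -0.71 to 0.20 in serum, and miR-3473e is the highest member in intestine (0.88).

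The dose effect of miR-3473e differed between serum and intestine by -1.11 ± 0.40, lower in serum than in intestine. This limma contrast (adjusted p = 0.0435 over 144 miRNAs) came from 1 fit of all 6 groups on the common scale. miR-3473e was the only member of 5 to pass, where 23.6% of the 144 miRNAs passed. The differences were -0.84 for miR-3473f (adjusted p = 0.250), -0.67 for miR-3473g (adjusted p = 0.226), -0.20 for miR-3473b (adjusted p = 0.837) and 0.11 for miR-3473a (adjusted p = 0.896). The call for miR-3473e was lost without any 1 of 10 arrays: serum 0 Gy replicates 1 and 2, serum 10 Gy replicates 2, 3 and 4, intestine 0 Gy replicates 2 and 4, and intestine 10 Gy replicates 1, 2 and 4 (differences from -1.29 to -0.93, adjusted p from 0.0601 to 0.21). With normexp background correction the difference was -0.07.

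Differences between members on the same array do not depend on the scaling between arrays. Only their change from array to array is read here, since the probes of 2 members differ in response. The log2 signal of miR-3473f minus that of miR-3473b was -1.16 ± 0.48 in feces at 0 Gy and -1.16 ± 0.06 at 10 Gy (SD, n = 4 each). In serum it went from 0.01 ± 0.56 (n = 2) to -0.69 ± 0.19 (n = 4), where the groups did not overlap (exact two-sided permutation p = 0.0667, the smallest this design allows, and 0.333 adjusted over the 10 comparisons in intestine and serum). In intestine it was -4.88 ± 0.81 and -4.95 ± 0.26. In feces the mean difference was thus the same at both doses, and it was lower in intestine than in feces or serum.

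The log2 signal of miR-3473e minus that of miR-3473b was -1.74 ± 0.22 in feces at 0 Gy and -3.28 ± 0.69 at 10 Gy, without overlap. In intestine it was -7.09 ± 0.34 at 0 Gy and -6.49 ± 0.40 at 10 Gy (exact two-sided permutation p = 0.0571, adjusted 0.333). In serum it was -3.58 ± 0.50 and -3.89 ± 0.39 (exact p = 0.467, the smallest possible being 0.0667). The 2 members that share 18 bases and a seed thus kept no fixed difference over the 22 arrays. miR-3473a minus miR-3473b, which share 16 bases, stayed within -4.09 to -3.09 in feces at both doses, had means of -3.76 and -3.87 in intestine, and was lower in serum (-5.65 and -5.45). miR-3473g minus miR-3473b was 0.98 ± 0.70 in feces at 0 Gy and -0.51 ± 0.52 at 10 Gy, without overlap. These feces shifts of miR-3473e and miR-3473g contain the difference of miR-3473b (1.34) that chose the family. On the type scale the 2 members themselves differed by only -0.20 and -0.14. The lack of overlap is therefore no separate result, and its share among other miRNAs was not computed.

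**Figure D4:**
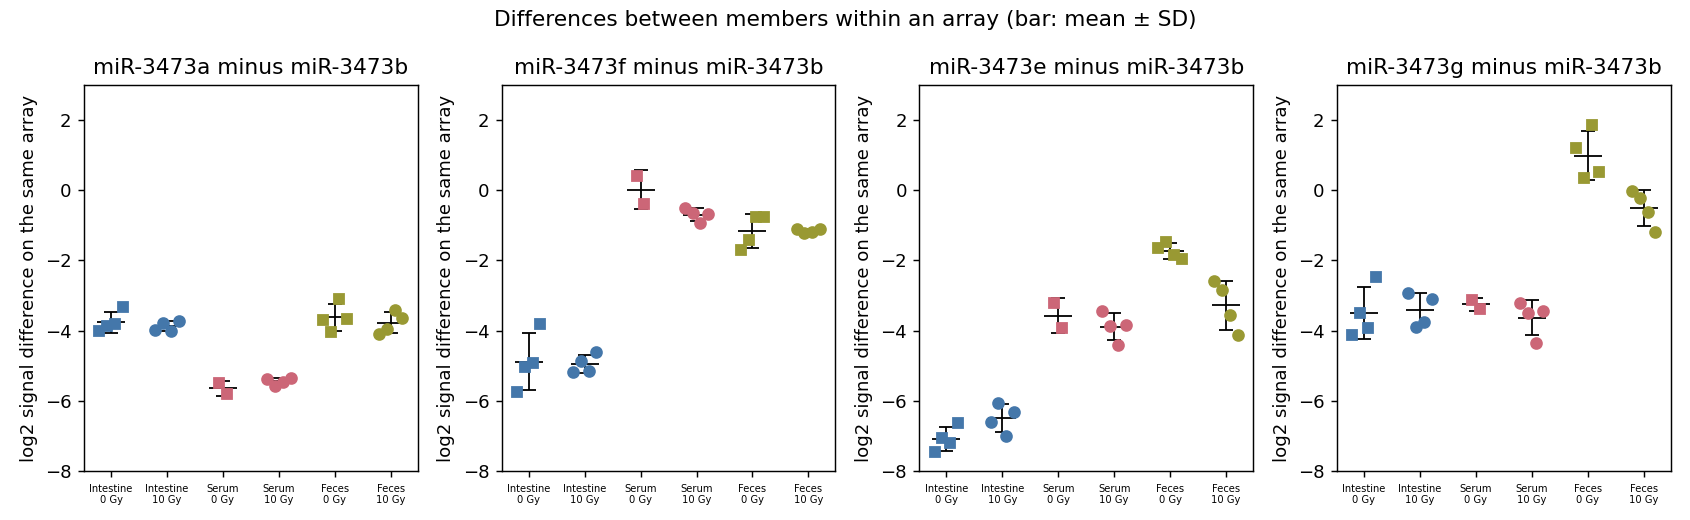
Log2 signal of 4 members minus that of miR-3473b on the same array (y axis) in the 6 groups (x axis), with mean ± SD. The feces values of miR-3473f and miR-3473a are level between the doses, and those of miR-3473e and miR-3473g lie lower at 10 Gy (means from -1.74 to -3.28 and from 0.98 to -0.51). All feces values contain the rise of miR-3473b that chose the family.

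Over the 8 feces arrays the type-scale levels of miR-3473b correlated with those of miR-3473f at r = 0.94 and with those of miR-3473a at r = 0.93. For miR-3473c, read from the other strand, r was 0.81, against -0.43 for miR-3473e and -0.09 for miR-3473g. These values describe arrays that share slide, scaling and dose groups, and carry no test. Over the 8 intestine arrays miR-3473b and miR-3473a again ran together (r = 0.94), and over the 6 serum arrays their r was 0.80.

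The 3 miRNAs outside the family most like miR-3473b in feces were miR-652-5p (r = 0.95, rho = 0.79), miR-5126 (r = 0.93, rho = 0.88) and miR-690 (r = 0.93, rho = 1), of 485 compared over 8 arrays. For miR-3473f in feces they were miR-5126 (r = 0.96), miR-6349 (r = 0.93) and miR-8110 (r = 0.92), each with rho = 0.98. In serum, over 6 arrays and 169 miRNAs, miR-328-3p (r = 0.93, rho = 0.94), miR-425-5p (r = 0.89, rho = 0.89) and miR-22-3p (r = 0.85, rho = 0.83) were most like miR-3473b. Most like miR-3473f there were miR-451a (r = 0.97, rho = 0.99), miR-30d-5p (r = 0.96, rho = 1) and miR-222-3p (r = 0.91, rho = 0.94). In intestine, over 8 arrays and 330 miRNAs, they were miR-3102-5p.2-5p (r = 0.95, rho = 0.88), miR-3075-5p (r = 0.93, rho = 0.95) and miR-7033-5p (r = 0.90, rho = 0.98) for miR-3473b. For miR-3473f they were miR-6392-3p (r = 0.77, rho = 0.67), miR-1894-3p (r = 0.76, rho = 0.36) and miR-6973b-5p (r = 0.73, rho = 0.19). No miRNA was among the 3 of the same member in 2 sample types.

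miR-690 is shown for its hairpin, 1 of the 3 outside the family that hold UGGAGAGAUG. At chr16:28599935-28600043 on the minus strand, its bases 60 to 77, capitalised here, are also those of miR-3473b from its 3rd base on, while mature miR-690 occupies bases 83 to 104.
Mir690 hairpin: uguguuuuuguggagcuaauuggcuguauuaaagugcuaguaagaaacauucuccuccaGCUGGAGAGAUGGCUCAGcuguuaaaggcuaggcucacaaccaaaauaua
The mature miR-690 shared at most 6 bases in a row with any hairpin of the family. Its difference between doses in feces was 1.86 on the log2 scale, and its change in intestine was -0.45 (limma adjusted p = 0.0800). miR-6413 had a feces difference of 1.38, and miR-8115 was not compared. These feces values were looked at after those of the family and are given without a test.

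Of 4 miRNAs whose sequences lie in the B1 repeat, a different short interspersed element, 2 were on the array. Of these miR-1195 was not detected on any array, and miR-709 changed by 0.27 ± 0.23 in intestine (limma adjusted p = 0.379), 0.36 ± 0.21 in serum (adjusted p = 0.427) and 0.15 ± 0.26 in feces (adjusted p = 0.679). None of the 3 values passed. Of 10 miRNAs studied in macrophage activation and inflammation, the setting in which miR-3473b is known, 7 were tested in intestine and 5 rose. They were miR-132-3p (1.29 ± 0.18), miR-223-3p (1.20 ± 0.19), miR-146b-5p (0.82 ± 0.16), miR-21a-5p (0.55 ± 0.17) and miR-125b-5p (0.49 ± 0.17), with limma adjusted p-values from 0.000146 to 0.0352, on a background of 26% higher. Of these, miR-146b-5p was detected on 0 of 4 arrays at 0 Gy and 4 of 4 at 10 Gy. Only the irradiated arrays brought it into the test, and its change starts from the floor. In serum and in feces 1 of the 10 was tested, and it did not pass. miR-3473b itself did not pass in intestine.

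Marker miRNAs bore on the sample types as follows. All 6 epithelial markers were detected in intestine at both doses, where 3 fell (miR-192-5p, miR-200b-3p and miR-200c-3p), and in both feces groups, where 0 of 6 passed. In feces miR-375-3p was detected on only 2 of 4 arrays at each dose. In serum 5 of the 6 were not detected at either dose, and miR-375-3p rose by 2.61 ± 0.47 (limma adjusted p = 0.0280). Of 4 leukocyte markers all were tested in intestine, where 3 fell and miR-223-3p, which is also in the inflammation list, rose. Among the 3, miR-150-5p was detected on 4 of 4 arrays at 0 Gy and 1 of 4 at 10 Gy. The unirradiated arrays alone brought it into the test, and its mean at 10 Gy (-5.59) lay near the floor (-5.79). None of the 4 leukocyte markers was tested in serum or feces. The liver marker miR-122-5p was not detected on any array, and neither of 2 smooth muscle markers passed. The irradiated intestine had higher miR-34a-5p, a p53 target (3.33 ± 0.19, adjusted p = 7.68e-08), and more detected miRNAs per array (365.75 ± 27.4 against 294.5 ± 6.66, exact two-sided permutation p = 0.0286). In feces miR-34a-5p was detected on 1 of the 4 unirradiated and 4 of the 4 irradiated arrays, so the irradiated arrays alone brought it into the comparison. Its difference of 2.69 ± 0.38 there is given without a test, and its mean at 0 Gy (-6.87) lay near the floor (-7.20). In serum miR-34a-5p was not detected. The part of these shifts in the values of the miR-3473 members was not tested.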

How the data were processed

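RNA of 22 samples was hybridised to 1-colour mouse miRNA arrays, 1 sample each. The deposited intensity is the processed signal on a linear scale, which the authors made with Agilent Feature Extraction 11.5 (11.5.1.1 per the file headers), with background subtracted and no normalization between arrays. Each array had 58594 spots, with 4415 mouse probes. All values (100%) of the authors' deposited series table lay within 1% of that signal. The table is therefore linear, without centring (column medians -1.55 to 2.1).

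Non-outlying spots were averaged per probe, probes were summed per miRNA, and values were divided by the 75th percentile over the miRNAs that every array of that sample type detected (268 for intestine, 121 for serum, 326 for feces). Lower values were set to a floor, the median of the arrays' lowest detected values, before log2. miRNAs detected on at least 4 arrays (2 in serum) were tested with limma 3.58.1 in R 4.3.3, with Benjamini-Hochberg adjustment, and passed below 0.05. No spot of a member was saturated (0 in all). In simulated data with 40 changed miRNAs, changes of 1 on the log2 scale were recovered in 85% of cases in intestine (335 miRNAs), 50% in serum (193) and 15% in feces (491). The number of arrays limits the precision.

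The members, the lists (B1 repeat, inflammation, epithelium, erythrocytes, leukocytes, liver, smooth muscle) and the rule for named miRNAs were chosen with earlier results of these data known. The rule takes every member, miR-34a-5p, the markers, list members that pass, and for miR-3473b and miR-3473f the 3 miRNAs with the highest r in each sample type. Alternatives were other scalings, background corrections, filters, floors, probe summaries, blocks, array weights and 1 array left out. The mm9 build of the array design was not used here. Sequences and coordinates are from RefSeq on GRCm38.p6. Same-numbered samples did not deviate together in every pair (correlations -0.56 to 0.44), so the numbers were not taken as pairs.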

Additional observations from a re-analysis of the deposited data

Results flagged for a closer look

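In intestine at 10 Gy the type-scale level of miR-3473e in replicate 2 was -1.44, far above the other 3 arrays of its group (-2.84, -2.77 and -2.67), by more than their whole spread. It was the 1 array flagged among 27 pairs of member and group, where chance gives about 1 in 20, so 1 flag is about what chance gives. The rule for flagging was stricter than lying beyond that spread. For example, miR-3473g in serum at 10 Gy had -0.58 in replicate 3, against -0.18, -0.09 and -0.06, and was not flagged. Without 10 Gy replicate 2 the intestine change of miR-3473e was 0.56 (limma adjusted p = 0.0737).

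The dose effect of miR-3473e differed between serum and intestine by -1.11 on the common scale (limma adjusted p = 0.0435). Its type-scale changes, from separate fits, were -0.32 in serum and 0.88 in intestine. miR-3473e is listed because the difference between the sample types was itself tested. The call was lost when any 1 of 10 arrays was left out.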

How the results depend on the processing

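In intestine 1 member passed. The count was 0 with the percentile over all miRNAs, no filter on dim miRNAs, the floor doubled to 2 times, the brightest probe or the replicate block, and 2 without scaling or with array weights (0 to 1 with 1 array left out). With normexp background correction the 1 member that passed was miR-3473g, not miR-3473e. In serum 0 passed, and 1 with normexp (miR-3473f). For serum minus intestine 1 passed, and 0 with the percentile over all miRNAs, quantile normalization, normexp, detection on every array, no filter, the brightest probe, the slide row as a block or the replicate block, 3 without scaling and 2 with array weights (0 to 1 with 1 array left out). Whether samples of equal number are pairs is not known. The median feces difference of the members was 0.30 without scaling, and 0.79 to 1.10 with 1 array left out. miR-3473f in serum minus intestine (3.53) was 2.66 without scaling, 2.53 with normexp and 3.95 on the type scales (3.39 to 3.60 with 1 array left out). The cause of these shifts was not tested. Level differences between feces and the other sample types were not recomputed under these settings.

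Signs turned as follows. In serum miR-3473b was 0.22 with quantile normalization and 0.015 with the brightest probe, and miR-3473a -0.58 without scaling and -0.020 with the percentile over all miRNAs. In intestine the percentile over all miRNAs gave -0.34, -0.23, -0.29 and -0.14 for miR-3473a, miR-3473b, miR-3473f and miR-3473g, normexp -0.038 for miR-3473f, and array weights -0.12 for miR-3473a and -0.11 for miR-3473b. In feces 1 fit of all 6 groups gave 0.026 for miR-3473e and 0.084 for miR-3473g, and miR-3473g was 0.087 without 0 Gy replicate 3. For serum minus intestine miR-3473b was 0.0099 with the percentile over all miRNAs, and miR-3473a -1.22 without scaling and -0.047 with the replicate block. With 1 array left out, miR-3473b in serum ranged from -0.25 to 0.23, miR-3473a in intestine from -0.033 to 0.34 and miR-3473a in serum minus intestine from -0.042 to 0.24.

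Over all miRNAs, 140 passed in intestine (87 higher, 53 lower), against 107 (21 and 86) with the percentile over all miRNAs, 121 (57 and 64) with quantile normalization, 199 (186 and 13) without scaling, 91 (25 and 66) with normexp and 32 with no filter. In serum 9 passed, against 0 with no filter or the replicate block and 26 in 1 fit of all groups. In feces 37 passed, against 3 with normexp and 172 with array weights, and 0 to 146 with 1 array left out. Values within slide rows were chosen after seeing the data. Signals near background limit miR-3473c outside feces, miR-3473d everywhere and the second probe of miR-3473e. They also limit 1 of the 2 probes of miR-3473a, detected on 0 of 6 serum arrays and 5 of 8 feces arrays.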
